A study of Homo sapiens with 6 samples.

Results

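PAX2, PAX8 and LHX1 are transcription factors that mark the intermediate mesoderm, the embryonic tissue from which the kidney forms. They were taken by name, as the 3 rows of the raw count table whose Ensembl identifiers map to these symbols (ENSG00000075891, ENSG00000125618 and ENSG00000273706), out of 60107 rows in all. All 3 passed the filter on low counts, which kept 22613 genes. RNA was measured by stranded mRNA sequencing with single reads of 50 nt in cells derived from H9, a widely used line of human embryonic stem cells, which were taken through a differentiation of 10 days towards nephron progenitor cells and harvested when day 9 ended. In 3 libraries the cells had complete medium, with glutamine, and in the other 3 glutamine was left out from day 0 through day 9. Both groups came from the same cell line, got the same differentiation protocol and were collected on the same day of it. The column headings of the deposited tables name days 0 and 9, and each library was assigned through its sample description, which places the headings with day 0 in the group with glutamine and those with day 9 in the group without. The directions given here depend on that assignment. The labels do not say whether replicates were separate cultures, so p-values measure only the spread between these libraries, which may be technical.

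PAX2 and PAX8 are closely related proteins of the paired-box family that bind DNA through a paired domain, and in the mouse embryo they act partly in place of each other when the nephric duct is specified. LHX1 is a LIM homeodomain protein, whose LIM domains recruit the adaptor LDB1, and it is needed for the nephric duct and later for the first epithelial structures of the nephron. Nephron progenitors keep PAX2 on, while PAX8 and LHX1 are best known from the early intermediate mesoderm and again from the renal vesicle, the first epithelial stage of the nephron.

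The libraries held 78220507 to 84746566 counts. The replicate 1 library with glutamine stood apart from the other 2 of its group: with a pseudocount of 0.05 CPM (CPM is the count scaled to the size of the library), its log2 level was closer to the mean of the glutamine-free group than to the mean of replicates 2 and 3 with glutamine for 14028 of the 22613 genes, or 62.0%. A mean of 3 libraries varies less than a mean of 2, which by itself raises this share, and the share was not computed for other libraries. The results on PAX2, PAX8 and LHX1, their neighbours and the gene lists are also given without replicate 1 with glutamine. The nephron progenitor markers EYA1 and WT1 were at 140 ± 13 and 359 ± 27.4 CPM without glutamine and at 196 ± 29.4 and 277 ± 85.5 CPM with it (SD, n = 3). Of the 4 pluripotency genes followed, NANOG and TDGF1 reached no more than 2 counts per library and POU5F1 no more than 13. ZFP42 was at 7.27 ± 0.124 CPM with and 9.46 ± 2.06 CPM without glutamine (SD, n = 3; log2 fold change 0.38, SE 0.16, edgeR adjusted p 0.168).

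The sequences below show whether reads of 50 bases can tell these genes from their relatives. None of the 6470 different 50-base windows in the GENCODE 29 transcripts of PAX2, and none of the 7661 of PAX8, occurred in sense orientation in the transcripts of another gene. The most alike pair of windows in the coding sequences of the longest PAX2 and PAX8 transcripts, compared without gaps, differed at 3 of 50 bases. It lies in 1 exon of each gene, at chr10:100750812-100750861 on the plus strand and chr2:113244457-113244506 on the minus strand of GRCh38. Capitals mark the bases that differ.
PAX2: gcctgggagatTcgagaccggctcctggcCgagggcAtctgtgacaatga
PAX8: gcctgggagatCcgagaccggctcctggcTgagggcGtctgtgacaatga
Of the 4922 windows of LHX1, 4 occurred also in its paralog LHX5, or 0.0813%. They join into 1 coding stretch of 53 bases at chr17:36940831-36940883 on the plus strand, printed because it is the only sense sequence in these genes that a whole read could not place.
LHX1: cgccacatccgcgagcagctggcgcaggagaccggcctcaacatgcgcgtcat
LHX5 had between 1 and 17 counts in a library.

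The bases before the RefSeq start sites (RefSeq on GRCh38.p14) are printed for PAX2, which has 2 listed starts, and for PAX8. They were chosen because PAX2, PAX8 and LHX1 were all lowest in replicates 2 and 3 with glutamine. No window is printed for LHX1, which has no entry among the start sites used here. Capitals mark CCAAT, the CCAAT box. The PAX2 windows are chr10:100735146-100735395 and chr10:100745332-100745581 on the plus strand, and the PAX8 window is chr2:113278951-113279171 on the minus strand, cut to 221 bases where an exon of GENCODE 29 begins.
PAX2 first start: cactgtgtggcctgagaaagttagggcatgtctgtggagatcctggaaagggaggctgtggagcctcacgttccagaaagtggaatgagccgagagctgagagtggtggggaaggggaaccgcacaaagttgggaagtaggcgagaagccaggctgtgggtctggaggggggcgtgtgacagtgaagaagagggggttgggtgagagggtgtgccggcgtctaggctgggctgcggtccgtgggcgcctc
PAX2 second start: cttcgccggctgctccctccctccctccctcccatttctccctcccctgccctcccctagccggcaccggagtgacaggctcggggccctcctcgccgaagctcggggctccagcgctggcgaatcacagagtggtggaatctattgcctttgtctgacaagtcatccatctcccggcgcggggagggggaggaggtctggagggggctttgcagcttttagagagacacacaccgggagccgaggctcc
PAX8: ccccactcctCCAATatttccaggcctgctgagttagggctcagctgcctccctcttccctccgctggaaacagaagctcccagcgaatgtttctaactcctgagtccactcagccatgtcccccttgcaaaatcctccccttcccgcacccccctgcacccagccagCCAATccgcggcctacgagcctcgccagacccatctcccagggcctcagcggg
CCAAT was found 2 times in the PAX8 window and in neither PAX2 window, and 32.0% of the 35116 RefSeq windows of 250 bases hold it on either strand. Also searched on both strands were TATAAA (the TATA box, held by 10.7% of the windows), GGGCGG (the GC box, 42.6%) and CTTTGAT (the TCF/LEF core, 2.26%). The last 2 motifs were AGGTCA (a nuclear receptor core, 12.1%) and TAATTA (a homeodomain core, 4.35%). None of these 5 occurred in the 3 windows. The motifs found did not overlap.

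PAX2 lies at chr10:100735603-100829941 on the plus strand, with 14 merged exons. Its level was 150, 17.0 and 12.9 CPM in replicates 1, 2 and 3 of the group with glutamine, from 12180, 1328 and 1015 counts. Without glutamine it was 245, 200 and 146 CPM, from 21077, 15664 and 11453 counts. The groups overlapped, because replicate 1 with glutamine was above replicate 3 without. Replicates 2 and 3 with glutamine were far below the other 4 libraries. Replicate 1 stood at 10.0 times the mean of the other 2 libraries of its group, and the highest library without glutamine at 1.68 times the lowest. The mean was 60.0 ± 78.1 CPM over the libraries with glutamine and 197 ± 49.7 CPM over those without (SD, n = 3), so the spread within the group with glutamine exceeded its mean.

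PAX8 lies at chr2:113215997-113278950 on the minus strand, with 12 merged exons. Its level was 649, 194 and 167 CPM in the replicates with glutamine, in order of their number, from 52627, 15113 and 13112 counts. Without glutamine it was at 849, 680 and 587 CPM, from 72972, 53264 and 46092 counts. The pattern was that of PAX2 with a smaller range. Replicate 1 with glutamine lay between replicates 2 and 3 without, at 3.60 times the mean of the other 2 libraries of its group. The means were 336 ± 271 CPM with and 705 ± 133 CPM without glutamine (SD, n = 3).

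LHX1 lies at chr17:36936785-36944612 on the plus strand, with 7 merged exons. It was at 71.9, 4.51 and 4.66 CPM with glutamine, from 5829, 352 and 366 counts, and at 137, 114 and 89.5 CPM without, from 11814, 8920 and 7031 counts. LHX1 had the widest range of the 3 genes and was the only one whose groups did not overlap. The groups do not overlap, with the higher values without glutamine, for 17.3% of all genes tested, so such a separation was common in these data. Replicate 1 with glutamine was at 15.7 times the mean of replicates 2 and 3. The means were 27.0 ± 38.8 CPM with and 114 ± 23.9 CPM without (SD, n = 3). Even the lowest count, 352, has an exact 95% Poisson interval of 316 to 391, or 4.05 to 5.01 CPM, which covers counting error only. Replicate 3 with glutamine, at 4.19 to 5.16 CPM, cannot be told from replicate 2 at this depth, and both lie far below the 70.1 to 73.8 CPM of replicate 1. In bulk RNA, fewer cells that express a gene and less of its RNA per cell cannot be told apart.

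**Figure D1:**
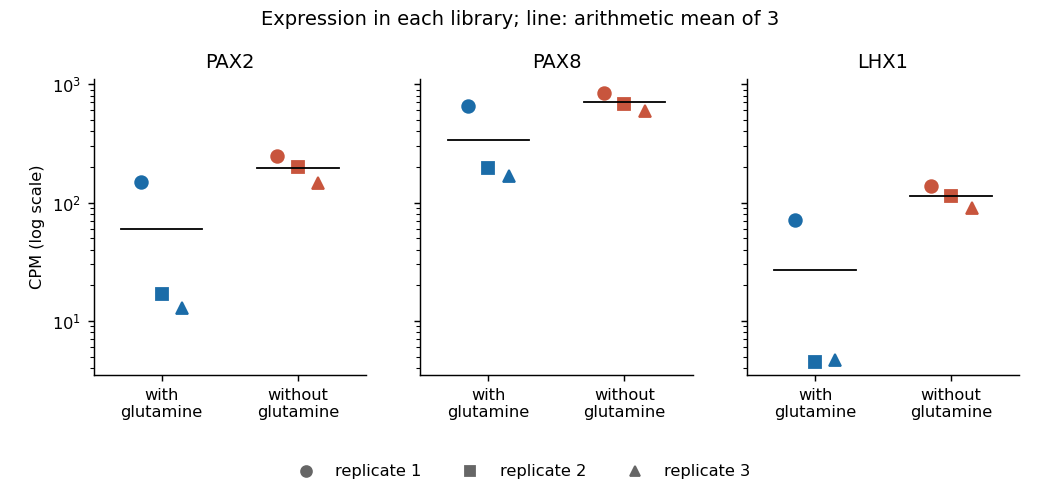
CPM on a log axis for PAX2, PAX8 and LHX1, with 1 point for each library, shaped by replicate and coloured by group, and a line at the arithmetic mean of 3. In all 3 panels replicate 1 with glutamine sits close to the libraries without glutamine, and replicates 2 and 3 sit far below it, at 17.0 and 12.9 CPM for PAX2 and 4.51 and 4.66 CPM for LHX1.

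The comparison without against with glutamine asked whether these genes change when glutamine is withheld. With all 6 libraries none of the 3 passed the test, edgeR's quasi-likelihood F test with Benjamini-Hochberg adjustment over all genes at a threshold of 0.05. The log2 fold change was 1.71 for PAX2 (SE 0.89, edgeR adjusted p 0.234), 1.07 for PAX8 (SE 0.50, edgeR adjusted p 0.200) and 2.07 for LHX1 (SE 1.02, edgeR adjusted p 0.217). Their unadjusted p-values from edgeR were 0.0934, 0.0706 and 0.0808. The test called 1 of 22613 genes, or 0.00442%, and 0 of these 3. The called gene, named after its values were seen, was SLC7A11, a cystine and glutamate transporter. At an unadjusted p under 0.05 it had 6718 genes, and DESeq2 called 3041 of 21759 genes with an adjusted p, or 14%, with none of these 3 among them. By direction DESeq2 called 7.54% of genes higher and 6.44% lower without glutamine. By size of the fold change the genes ranked high: 0.557% of all genes tested had a higher log2 fold change than LHX1, 1.38% than PAX2 and 4.83% than PAX8.

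Whether the genes were called depended on 1 library. Replicate 1 with glutamine was singled out because it stood apart in these same data, so p-values without it depend on that choice. Without replicate 1 with glutamine all 3 genes were called, at log2 fold changes of 3.72 for PAX2 (SE 0.22, edgeR adjusted p 1.8e-06), 1.97 for PAX8 (SE 0.15, 7.02e-06) and 4.63 for LHX1 (SE 0.19, 1.93e-07). That fit called 9573 of 23164 genes, or 41.3%, and 22.3% of the genes as higher without glutamine, so a call in it is common. LHX1 ranked 71 and PAX2 269 among the 23164 genes by p in that fit, and PAX8 509. Leaving out any other library called none of the 3 genes. With all 6 libraries, limma-voom, which averages log values, gave larger changes: 2.58 for PAX2, 1.34 for PAX8 and 3.27 for LHX1, none called (limma adjusted p 0.0913, 0.116 and 0.0762).

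**Figure D2:**
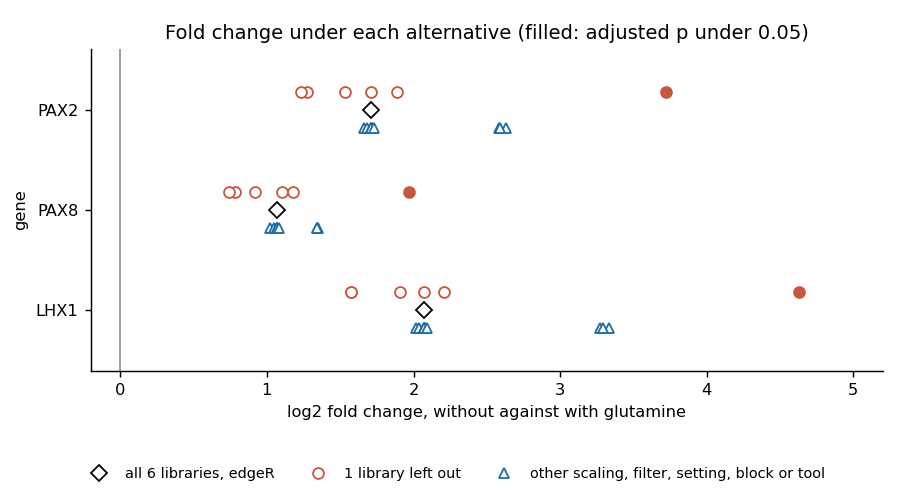
Log2 fold change without against with glutamine for each gene under the fit of all 6 libraries (diamond), the 6 fits that each leave out 1 library (circles) and 11 other settings (triangles), filled where the adjusted p was under 0.05. Every value is above 0, and the single filled circle in each row, at 3.72, 1.97 and 4.63, is the fit without replicate 1 with glutamine.

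Because a ratio of counts within 1 library does not depend on library scaling, the genes were also compared with each other. The log2 ratio of PAX2 to PAX8 counts was -2.11, -3.51 and -3.69 in replicates 1, 2 and 3 with glutamine and -1.79, -1.77 and -2.01 without. The log2 ratio of PAX2 to LHX1 was 1.06, 1.91 and 1.47 with and 0.84, 0.81 and 0.70 without. That of PAX8 to LHX1 was 3.17, 5.42 and 5.16 with and 2.63, 2.58 and 2.71 without. The groups did not overlap in any of the 3 ratios, of which the third follows from the other two, and here replicate 1 with glutamine fell on the side of its own group, although close to the other. How often other pairs of genes separate the groups was not tested, and 34.2% of single genes do in CPM. The ratios varied little among the libraries without glutamine, with SDs of 0.13, 0.07 and 0.07 (n = 3), against 0.86, 0.43 and 1.23 with it. Relative to PAX8, LHX1 was lower by 1.95 log2 units in the libraries with glutamine, and PAX2 by 1.25.

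The differences between groups in these ratios, without minus with glutamine, were 1.25 for PAX2 to PAX8, -0.70 for PAX2 to LHX1 and -1.95 for PAX8 to LHX1. Each had an exact two-sided permutation p of 0.1, which is the smallest that 3 libraries against 3 allow, and 0.1 after adjustment over the 3 pairs. The design cannot reach p under 0.05 in this test. Without replicate 1 with glutamine the differences were 1.74, -0.91 and -2.65.

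**Figure D3:**
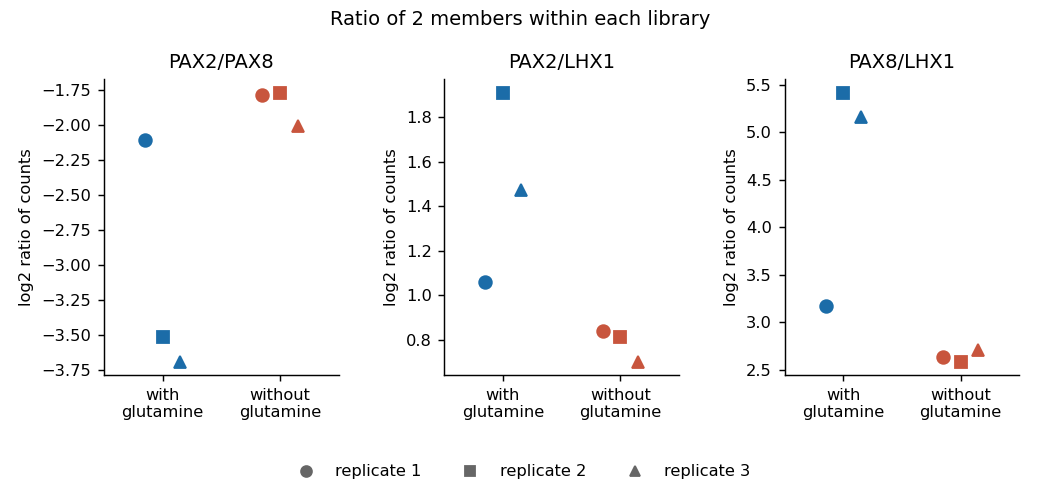
Log2 ratio of the counts of 2 genes within each library, 1 panel for each pair with its own axis and 1 point for each library, shaped by replicate and coloured by group. The libraries without glutamine lie close together, for example at 2.63, 2.58 and 2.71 for PAX8 to LHX1, and replicate 1 with glutamine lies between them and replicates 2 and 3.

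Per kilobase of merged exons, the order of the levels was the same in each of the 6 libraries: PAX8 was highest, then PAX2, then LHX1. The levels without glutamine were 95.3 ± 17.9 CPM per kb for PAX8, 31.5 ± 7.96 for PAX2 and 23.3 ± 4.90 for LHX1 (SD, n = 3). PAX2 and LHX1 are neighbours in that order and differed by about the spread between libraries, although PAX2 was higher in each library. With glutamine the levels per kb were 87.7, 26.2 and 22.6 for PAX8, 24, 2.72 and 2.07 for PAX2, and 14.7, 0.923 and 0.954 for LHX1 in replicates 1, 2 and 3. In replicates 2 and 3 PAX8 was therefore the only one of the 3 genes above 3 CPM per kb.

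Genes on the opposite strand that touch or adjoin PAX8 and LHX1 had the same pattern. PAX8-AS1, a noncoding RNA whose span overlaps PAX8 and shares 685 exon bases with it, was at 21.3, 6.48 and 4.14 CPM with glutamine and 25.5, 23.0 and 21.2 CPM without. Its counts were between 2.48% and 3.61% of those of PAX8 in every library. LHX1-DT, a noncoding RNA that begins 124 bases from LHX1 and runs the other way, was at 18.7, 1.11 and 1.03 CPM with and 29.2, 30.9 and 24.9 CPM without, or 21.3% to 27.8% of the LHX1 counts. Replicates 2 and 3 with glutamine were thus low for both strands, and the share taken by LHX1-DT did not separate the groups. The antisense gene AC243773.1, which shares 367 exon bases with LHX1, had 118, 4 and 3 counts with glutamine and 165, 109 and 110 without. The libraries were stranded, but the strand setting of the counting is not given in the sources used here. The 50-base windows that also occur in antisense orientation in these RNAs are 5.9% of the PAX8 windows and 6.48% of the LHX1 windows. For that part the strands cannot be told apart if strand was not used.

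The nearest genes beyond them differed far less between the libraries. AATF, which encodes a transcription cofactor and begins 4263 bases past LHX1, was at 60.9 ± 2.93 CPM with and 68.4 ± 2.00 CPM without (SD, n = 3; log2 fold change 0.17, SE 0.07, edgeR adjusted p 0.163). PSD4, 6601 bases from PAX8, was at 5.30 ± 1.33 CPM with and 5.90 ± 0.544 CPM without (log2 fold change 0.16, SE 0.19, edgeR adjusted p 0.602). In both genes replicates 2 and 3 with glutamine were the lowest libraries, and without replicate 1 with glutamine both were called higher, AATF at 0.21 and PSD4 at 0.38 (edgeR adjusted p 0.0325 and 0.0371). The nearest listed genes around PAX2 were small noncoding RNAs with at most 3 counts in a library.

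**Figure D4:**
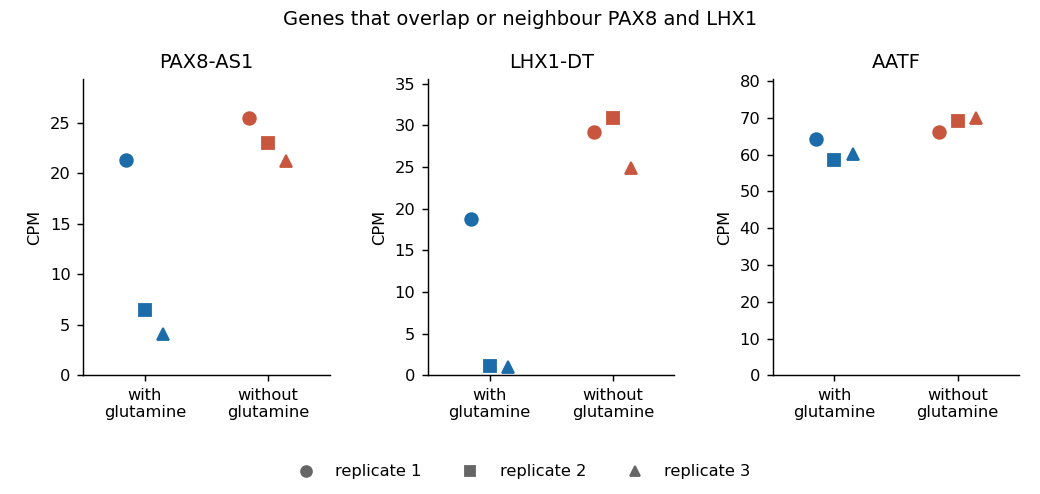
CPM of PAX8-AS1, LHX1-DT and AATF in each library on axes that start at 0, shaped by replicate and coloured by group. PAX8-AS1 and LHX1-DT are low in replicates 2 and 3 with glutamine (1.11 and 1.03 CPM for LHX1-DT), whereas AATF is between 58.4 and 70 CPM in all 6 libraries.

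The genes most like each of the 3 in pattern were found by the root mean square difference of log2 CPM, each gene centred on its own mean over the 6 libraries, among 16880 other genes with a mean of at least 50 counts. For LHX1 the closest was EMX2, a homeobox gene of the developing urogenital system, at 0.0926 log2 units, followed by GRIN2B, LHX1-DT, COBL and TMEM132B at 0.135 to 0.198. EMX2 was at 65.3, 3.77 and 3.79 CPM with glutamine and 122, 111 and 84.9 CPM without. For PAX2 the closest were SLCO4A1, MGAT5B, ERFE, HNF4G and MAP7, at 0.0885 to 0.146. For PAX8 they were KIF1A, WNK2, CRYGN, DOC2B and AC012368.1, at 0.0678 to 0.0912. PAX2 ranked 70 for LHX1 and LHX1 ranked 108 for PAX2, at 0.427. PAX8, with its smaller range, was less like either, at 0.802 from PAX2 and 1.20 from LHX1. PAX8 ranked 393 for PAX2 and 466 for LHX1. For PAX8, PAX2 ranked 3974 and LHX1 ranked 15467, so most candidates were closer to PAX8 than LHX1 was. These likenesses describe 6 libraries that mainly separate replicates 2 and 3 with glutamine from the rest.

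A list of 8 genes known as targets or partners of PAX2, PAX8 and LHX1 in the nephric lineage was followed beside them. With all libraries edgeR called 0 of the 7 tested, DESeq2 called GDNF and GATA3 (adjusted p 0.000239 and 0.00511), and 5 of the 7 had groups that did not overlap, all higher without, against 17.3% of all genes. Their median log2 fold change was 1.58, against 0.001 over all genes tested. The list was chosen with earlier results of these data known, so these comparisons with all genes are descriptive only. GDNF, the ligand that draws out the ureteric bud, was at 12.9 ± 6.92 CPM with and 33.4 ± 5.43 CPM without (SD, n = 3; log2 fold change 1.37, SE 0.34, edgeR adjusted p 0.0762). SFRP2, a secreted WNT modulator, was at 93.6 ± 67.8 and 282 ± 25.2 CPM (1.59, SE 0.45, edgeR adjusted p 0.0856). GATA3, a nephric duct transcription factor, was at 3.93 ± 1.90 and 7.99 ± 0.368 CPM (1.02, SE 0.30, edgeR adjusted p 0.0911).

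WNT4, which drives nephron progenitors to become epithelial, was low in the same 2 libraries as LHX1. It had 2111, 102 and 74 counts with glutamine and 2545, 1949 and 2378 counts without. RET, the GDNF receptor of the duct, was the only tested gene of the list with a negative log2 fold change over all libraries (-0.31, edgeR adjusted p 0.599). Its mean was 4.77 ± 2.81 CPM with and 3.84 ± 0.253 CPM without (SD, n = 3). RET was highest in replicate 1 with glutamine, at 7.93, 3.84 and 2.55 CPM with and 3.8, 3.61 and 4.11 CPM without. Leaving out replicate 1 with glutamine turned its log2 fold change to 0.27 (edgeR adjusted p 0.242). WNT9B had at most 8 counts. For all 7 tested genes replicate 1 with glutamine was closer to the other group, as for 62.0% of all genes. Without that library 6 of the 7 were called, all higher, where the background was 22.3%. Both shares describe a list chosen with earlier results of these data known.

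Other regulators of the kidney field did not move as 1 block. Of the 13 tested, edgeR called 0 with all libraries and DESeq2 called 3, all lower. Without replicate 1 with glutamine 7 were called higher and 6 lower, where 22.3% of all genes were called higher and 19% lower. The HOX11 genes mark the posterior part of the field that forms the kidney. HOXC11 had 20, 0 and 0 counts with glutamine and 154, 278 and 201 without, and HOXD11 had 44, 0 and 1 with and 277, 418 and 475 without. HOXA11 had 98, 3 and 6 counts with and 297, 412 and 286 without. In replicate 1 with glutamine these 3 genes were well below the libraries without, unlike PAX2 and PAX8. LHX1 was below those libraries too, but by a smaller factor, at 71.9 CPM against 89.5 to 137 CPM. OSR1, a regulator of early kidney mesoderm, was one of those 3 (DESeq2 adjusted p 0.0184) and was highest in replicates 2 and 3 with glutamine, with 1333, 3115 and 2780 counts with glutamine and 1490, 1286 and 1303 without. WT1, SALL1, FOXC1 and FOXC2 had log2 fold changes between 0.19 and 0.42, none called by edgeR with all libraries.

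**Figure D5:**
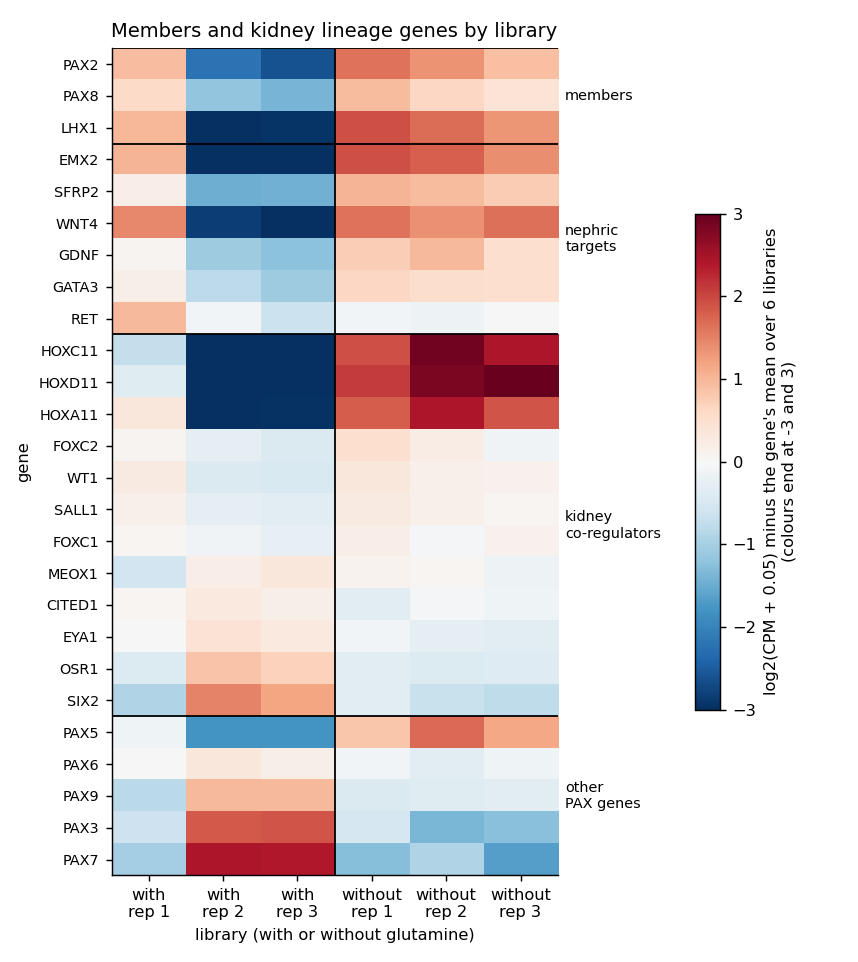
Colour gives log2(CPM + 0.05) minus the gene's mean over the 6 libraries, with genes of the lists reported by name in rows and libraries in columns, and colours end at -3 and 3. PAX2, PAX8, LHX1 and most nephric targets are low in replicates 2 and 3 with glutamine and high in the other 4 libraries, and SIX2, OSR1, PAX3, PAX7 and PAX9 have the reverse pattern.

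The 5 other paired-box genes tested did not all have the direction of PAX2 and PAX8. PAX5, the third member of the branch that holds PAX2 and PAX8, had the same direction, with 12, 1 and 1 counts with glutamine and 29, 51 and 34 without (log2 fold change 2.97, SE 0.63, edgeR adjusted p 0.0703). PAX3 and PAX7, the pair known from dorsal neural tube and somite, had the opposite direction, as did PAX6 and PAX9. PAX3 had 1687, 8996 and 9272 counts with glutamine and 1927, 973 and 1050 without (log2 fold change -2.40, SE 0.62, edgeR adjusted p 0.0786). PAX7 had 72, 798 and 789 counts with and 63, 76 and 43 without (-3.23, SE 0.85, edgeR adjusted p 0.0806). PAX6, an eye and neural tube regulator, was at 3.76 ± 0.430 CPM with and 2.94 ± 0.248 CPM without (SD, n = 3; -0.35, SE 0.15, edgeR adjusted p 0.162). PAX9 had 127, 429 and 434 counts with and 175, 168 and 173 without. PAX1 and PAX4 had at most 2 counts. Of the 5 tested, edgeR called 0 with all libraries, and DESeq2 called PAX5, PAX3 and PAX7 (adjusted p 0.00206, 0.0163 and 0.00904). Without replicate 1 with glutamine 1 was called higher and 4 lower, where the shares of all genes were 22.3% and 19%.

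The other 11 LIM homeodomain genes, of which LMX1B was highest in each library, summed to 15.1 to 18.5 CPM without glutamine and to 18.5 to 20.2 CPM with it. LMX1B, a regulator of limb and podocytes, was at 11.7 ± 1.32 CPM with and 8.69 ± 2.17 CPM without (SD, n = 3; log2 fold change -0.43, SE 0.19, edgeR adjusted p 0.178), and LHX4, a pituitary and motor neuron factor, at 4.15 ± 0.753 and 5.37 ± 0.577 CPM (0.37, SE 0.17, edgeR adjusted p 0.184). LMX1A was at 2.14 ± 1.16 and 0.770 ± 0.184 CPM. ISL2 and ISL1, factors of motor neurons, had low counts in the direction of LHX1: ISL2 had 18, 14 and 10 counts with glutamine and 37, 64 and 44 without, and ISL1 had 16, 3 and 4 with and 19, 10 and 18 without. Of the 8 tested, edgeR called 0 with all libraries, with a median log2 fold change of 0.472, and DESeq2 called ISL2 higher and LMX1A lower (adjusted p 0.00246 and 0.0103). Leaving out replicate 1 with glutamine, edgeR called LHX4, ISL1 and ISL2 higher and LMX1A and LHX6 lower, 3 and 2 of 8, against 22.3% and 19% of all genes.

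RNA for the tested cofactors through which LHX1 and the PAX factors act was found in every library, and most of these RNAs differed little between the groups. Protein was not measured. Of 10 LIM cofactors edgeR called 0 with all libraries and DESeq2 called 2 higher, LMO3 and SSBP4, and 2 lower, SSBP2 and LMO2. Their median log2 fold change was -0.0149. LDB1, the adaptor that LHX1 binds, was at 153 ± 5.56 CPM with and 137 ± 8.07 CPM without (SD, n = 3; log2 fold change -0.16). SSBP2, which stabilises LDB1, was at 166 ± 22.3 and 118 ± 4.28 CPM (-0.49, SE 0.11, edgeR adjusted p 0.0706). LMO3 and LMO2, LIM-only proteins that compete for LDB1, differed more and in opposite directions. LMO3 was at 2.36 ± 1.91 CPM with and 8.05 ± 0.296 CPM without (1.76, SE 0.46, edgeR adjusted p 0.0806), and LMO2 at 5.71 ± 3.83 and 1.13 ± 0.351 CPM (-2.34, SE 0.65, edgeR adjusted p 0.0843). Without replicate 1 with glutamine 2 of the 10 were called higher and 3 lower, near the 22.3% and 19% of all genes.

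Of 9 tested genes for PAX cofactors, which link PAX proteins to histone H3 lysine methylation or to Groucho repression, edgeR called 0 with all libraries, with a median log2 fold change of 0.0654, and DESeq2 called KMT2C (adjusted p 0.0245). The fit without replicate 1 with glutamine called TLE4 and DPY30 higher and KMT2C lower, 2 and 1 of 9, against 22.3% and 19% of all genes. PAXIP1, the adaptor that PAX2 binds, was at 34.6 ± 1.44 CPM with and 38.0 ± 2.47 CPM without (SD, n = 3; log2 fold change 0.13, SE 0.08). TLE4, the corepressor that PAX proteins recruit, was at 74.7 ± 4.33 and 89.7 ± 3.87 CPM (0.26, SE 0.07, edgeR adjusted p 0.0857), and KMT2C, a histone methyltransferase, at 195 ± 17.0 and 144 ± 18.3 CPM (-0.43, SE 0.11, edgeR adjusted p 0.0801). PAGR1 was not analysed here.

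PAX2, PAX8 and LHX1 are also used outside the kidney, and markers of those tissues were measured beside them. The 6 midbrain-hindbrain markers summed to between 11 and 12.3 CPM with glutamine and 11.7 to 19.5 CPM without, and OTX2 had at most 27 counts. The 6 otic markers summed to 1.93 to 5.72 CPM with and 3.8 to 5.97 CPM without, with SOX10 and OC90 at 0 counts in all 6 libraries. The 6 thyroid markers summed to 0.845 to 2.21 CPM with and 2.01 to 3.02 CPM without, with NKX2-1 at 0 counts in all 6. The summed otic and thyroid markers, like PAX2, were lowest in replicates 2 and 3 with glutamine. FOXI3, an otic placode gene, had 45, 9 and 7 counts with glutamine and 118, 73 and 68 without. LHX1 is also known from the node and its axial mesendoderm: those 6 markers summed to 4.67 to 7.37 CPM with and 5.05 to 5.81 CPM without, mostly from CHRD, and GSC and FOXA2 had 0 counts with glutamine and at most 4 without.

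Markers of other mesoderm and of neurons moved with the group in part. Of the 5 paraxial markers, UNCX, a somite factor, was at 15.8 ± 2.41 CPM with and 26.0 ± 8.81 CPM without glutamine (SD, n = 3; log2 fold change 0.72, SE 0.25, edgeR adjusted p 0.122). TCF15, also a somite factor, had the opposite direction, with 173, 573 and 631 counts with glutamine and 266, 195 and 151 without, and the 5 summed to 18.9 to 29.1 CPM with and 20.3 to 39.8 CPM without. The 6 neuron markers summed to 5.25 to 16.4 CPM with and 5.03 to 7.72 CPM without. Lateral plate markers summed to at most 0.988 CPM and primitive streak markers to at most 2.61 CPM in any library. With all libraries edgeR called none of these marker genes. DESeq2 called GBX2, FOXI3, TG, CER1, TUBB3 and UNCX higher, and SOX17, NEUROG2, MSGN1, TCF15 and MIXL1 lower. When replicate 1 with glutamine was left out, edgeR called 3 of 3 tested otic, 2 of 3 thyroid, 2 of 2 lateral plate and 1 of 6 midbrain-hindbrain markers, all higher. It called 3 of 5 paraxial and 2 of 2 primitive streak markers, all lower. Of the neuron markers 1 was called higher and 3 lower of 6, and of the axial mesendoderm markers 1 each way of 3, against 22.3% and 19% of all genes. The part of these cell types in the levels of PAX2, PAX8 and LHX1 was not tested.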

How the data were processed

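Raw counts by Ensembl gene ID were deposited for 6 libraries, beside normalized counts, a signal that the authors made by dividing each library's counts by 1 size factor. GRCh38, cutadapt, Trim Galore, FastQC, STAR 2.5.2b and DESeq2 are named in the submitters' processing notes, with no role. The counting program, the annotation and the strand setting are not given in the sources used here. Gene positions and exon lengths came from GENCODE 29 on GRCh38, which matched 56531 of 60107 gene IDs.

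Raw counts were tested with edgeR 4.0.16 in R 4.3.3 (quasi-likelihood F test, legacy = FALSE, robust = FALSE, filterByExpr, TMM scaling, Benjamini-Hochberg adjustment over all genes kept). CPM are counts over TMM-scaled library sizes. The standard error is the absolute log2 fold change over the square root of F. Likeness was computed on log2 CPM (prior count 2), and ratios with a pseudocount of 0.5. Alternatives used DESeq2 1.42.0, limma 3.58.1, other scalings and filters, a replicate block and each library left out.

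The genes and the lists (15 lists, 106 genes) were chosen with earlier results of these data known. The rule names up to 3 genes a list by smallest p at a mean of at least 1 CPM, nearest genes, and the 5 most alike genes. Other list genes, among them WNT4, OSR1, PAX5, ISL1 and ISL2, were named after their values were seen. Some list genes are counted but not reported here by name.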

Additional observations from a re-analysis of the deposited data

How the results depend on the processing

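Leaving out 1 library in turn gave log2 fold changes from 1.23 to 3.72 for PAX2, from 0.74 to 1.97 for PAX8 and from 1.57 to 4.63 for LHX1. The upper end of each range is the fit that drops replicate 1 with glutamine, the 1 alternative of 17 that called these genes. Over the other 11 settings the values were 1.66 to 2.63, 1.02 to 1.35 and 2.02 to 3.33, none called. With the replicate block they were 2.63, 1.35 and 3.33 (edgeR adjusted p 0.132, 0.131 and 0.135). Deviations from the group means of same-numbered libraries correlated at -0.021, 0 and 0.028. These values show no pairing but cannot exclude it, because replicate 1 with glutamine lies far from its group. Whether equal numbers share a culture is not known. The 3 ratios kept their sign under all 9 alternatives, from 0.95 to 1.74, from -0.91 to -0.48 and from -2.65 to -1.53.

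The count of called genes, 1 in all libraries, was 0 under upper quartile scaling, library size only, legacy = TRUE, limma-voom and the replicate block, 2 without a filter and 2 under limma-trend on deposited normalized counts, and 3041 with DESeq2. The cause was not tested. With 1 library left out it ran from 0 to 9573, the highest without replicate 1 with glutamine, and it was 17 without replicate 1 of the group without glutamine. Of 884 values for 52 other genes followed, 819 kept their sign and their call and 61 gained a call, 45 without replicate 1 with glutamine and 16 with DESeq2 on all libraries. The other 4 reversed, all with 1 library left out: FGF8 (-0.03 to 0.44), FBXO2 (-0.07 to 0.90) and CHRD (-0.32 to 0.11), where FBXO2 had -0.01 and -0.07 without replicates 2 and 3 with glutamine. At this depth LHX1 in replicates 2 and 3 with glutamine could not be told apart. Depth also limits HOXC11, PAX5 and other genes with under 10 counts in a library.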
